A study of Mus musculus with 69 samples.

Results

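The difference between the early effects of inhaled and of injected cyanide on the mouse heart was measured 1 h after exposure, as the effect of inhaled hydrogen cyanide (HCN) minus the effect of injected potassium cyanide (KCN). It used 16 of the 69 arrays of the study, 4 in each of 4 groups taken by their sample titles, and the 26773 of 45141 probe sets that passed a filter on low signal. The HCN 1 h group held hearts of mice that breathed HCN at 327 ppm nose-only, and the Air 1 h group its air-breathing controls. The KCN 1 h group held hearts of mice given KCN at 8 mg/kg under the skin, and the Saline 1 h group mice given an equal volume of saline. All were awake adult male CD-1 mice, an outbred stock, of 20 to 35 g, and each array was labelled as a biological replicate. The inhaled effect is the mean log2 signal of HCN 1 h minus that of Air 1 h, the injected effect is that of KCN 1 h minus that of Saline 1 h, and the interaction is the inhaled effect minus the injected effect. The arms differed in agent, route, dose and control at once, and these cannot be told apart.

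Cyanide binds cytochrome c oxidase, where the respiratory chain hands its electrons to oxygen, and so stops cells from using oxygen. A heart under such stress switches on immediate early genes, which need no new protein to be transcribed and which encode factors such as Fos, Jun and Egr1. Stress kinases and NF-kB act within the same period on chemokine genes such as Cxcl1 and Cxcl2, whose products draw neutrophils, and on feedback inhibitors that later switch the signal off. In each case a whole heart holds many cell types, and in bulk RNA fewer cells of a type and less RNA per cell cannot be told apart.

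All 16 arrays carried heart RNA: the cardiomyocyte genes Tnnt2, Tnni3, Myl2 and Actc1 lay between 12.7 and 13.6 on the log2 scale. Pairs of arrays within a group correlated at 0.984 to 0.993 over probe sets, and no 2 arrays held identical values. Airway RNA differed between arrays, and in the injection arm it differed exactly by group. The club cell secretoglobin Scgb1a1 read 10.99, 11.98, 11.98 and 2.89 in the HCN hearts, against 11.76, 12.29, 11.90 and 5.33 in the Air hearts. It read 11.30, 10.99, 11.36 and 11.99 in the KCN hearts, against 3.08, 2.54, 3.05 and 2.98 in the Saline hearts. Over all 7 airway markers the mean level spanned 3.18 to 10.1 in HCN, 4.01 to 10.1 in Air, 8.76 to 9.62 in KCN and 2.93 to 3.04 in Saline hearts. Airway RNA was thus high in every KCN heart, low in every Saline heart and low on the fourth array of both inhalation groups. Within the injection arm it cannot be told apart from the injected effect. Counts are also given without those 2 inhalation arrays, which leaves the difference between KCN and Saline hearts in place.

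The interaction passed the test for 53 probe sets, 0.198% of those tested, by limma with Benjamini-Hochberg adjustment at an adjusted p of 0.05. For 44 of them (0.164%) the inhaled effect was the more positive, and for 9 (0.0336%) the more negative. Without the 2 inhalation arrays of low airway signal 29 passed, 25 higher and 4 lower, all of them among the 53. The split was 64 higher and 61 lower, with 35 of the 53 kept, when only the 16 arrays were fitted, and 72 and 57 when these were also quantile-normalized alone. At an unadjusted p of 0.05 the count was 2332. The 39 called probe sets with a single gene symbol stood for 34 genes, 27 higher and 7 lower. In size, 52 of the 53 interactions were at least 1.5-fold and 40 at least 2-fold. On 50 of the 53 the 4 HCN arrays, each minus the Air mean, lay all on the same side of the 4 KCN arrays, each minus the Saline mean. That count was 41 on the higher side, against 7.97% of all tested probe sets, and 9 on the lower side, against 9.34%. The 53 were called on these same arrays, so their separation follows largely from that choice and is no further test. The spread of the control arrays does not enter this count. Over all tested probe sets the interaction had a median of -0.00013 and an SD of 0.35, and the inhaled and injected effects correlated at a Pearson r of 0.33, as a description across probe sets on 16 arrays.

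**Figure D1:**
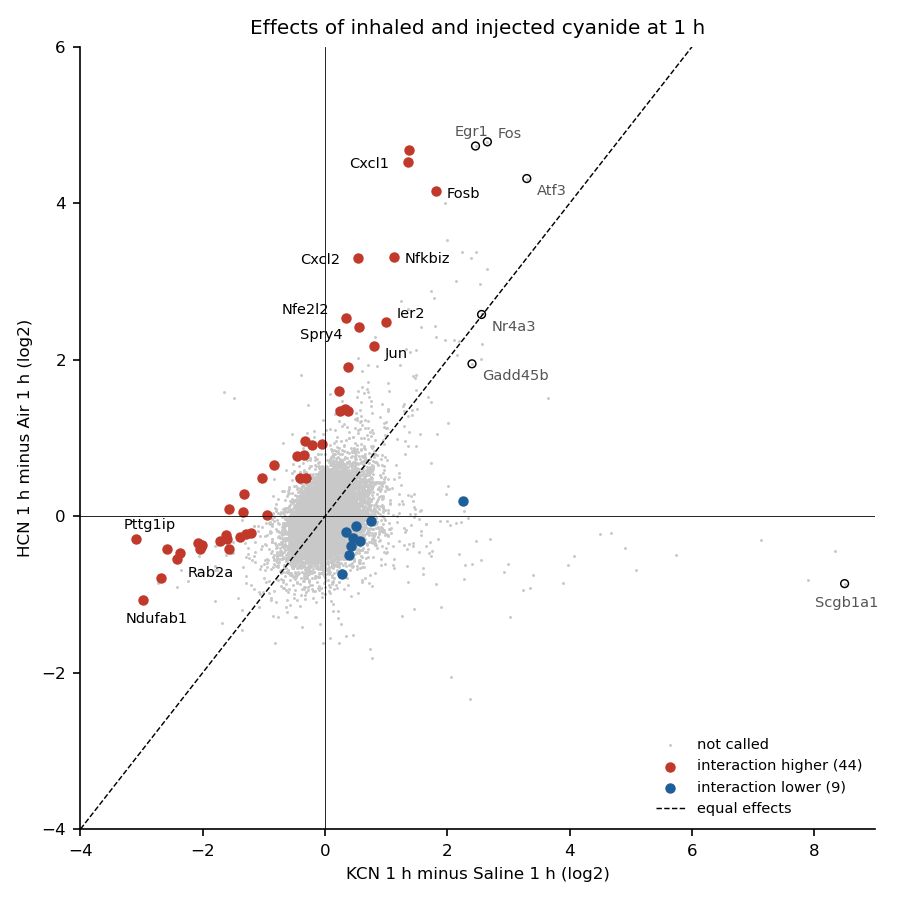
Inhaled effect (HCN 1 h minus Air 1 h, vertical) against injected effect (KCN 1 h minus Saline 1 h, horizontal), both in log2, for the 26773 tested probe sets. Red points are the 44 probe sets called higher and blue points the 9 called lower; open circles mark named genes that did not pass. The red points fall in a branch that rises with HCN and a branch that falls with KCN.

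The called probe sets were of 3 kinds by the effects behind the interaction, a split that describes the same arrays and is no further test. Taken by itself, the inhaled effect passed for 718 probe sets (2.68%) and the injected effect for 1094 (4.09%). Among the 44 higher ones, 20 had an inhaled effect that itself passed as a rise, where 1.38% of all probe sets did, and these stood for 14 genes. Another 23 had an injected effect that passed as a fall, against 2.52% of all probe sets, with 12 genes. A rise or fall is relative to the control hearts of the same arm and does not say which group moved. The remaining gene, Dusp23, an atypical phosphatase, passed in neither effect, at 0.49 inhaled and -0.42 injected. Among the 9 lower ones, 7 had an injected effect that passed as a rise (1.57% of all) and 2 an inhaled effect that passed as a fall (1.30%).

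Cxcl1 and Cxcl2 had the largest interactions among the genes that rose with inhaled cyanide. Both encode chemokines that act on the Cxcr2 receptor of neutrophils. Cxcl1 read 7.77, 7.18, 7.85 and 8.50 in HCN hearts, against 3.26, 3.24, 3.58 and 3.10 in Air hearts. In the injection arm it read 3.86, 4.14, 6.52 and 3.21 in KCN hearts, against 2.95, 3.51, 3.01 and 2.87 in Saline hearts. Relative to the mean of their own controls the HCN arrays ran from 3.88 to 5.20 and the KCN arrays, of which the third was the highest, from 0.13 to 3.43, without overlap. The inhaled effect was 4.53 ± 0.32 (SE) and the injected effect 1.35 ± 0.32, both called, and the interaction was 3.18 ± 0.46 (adjusted p = 3.01e-05), a 9.06-fold larger ratio to control. Cxcl2 read 5.18, 5.98, 6.51 and 5.65 in HCN hearts, against 2.40, 2.74, 2.49 and 2.48 in Air hearts. It read 2.52, 3.09, 3.96 and 2.49 in KCN hearts, against 2.32, 2.61, 2.62 and 2.32 in Saline hearts, so that 2 KCN arrays lay within the Saline range. Its inhaled effect of 3.30 rose, its injected effect of 0.55 did not pass (adjusted p = 0.0879), and the interaction of 2.75 ± 0.27 had the smallest p of all probe sets (adjusted p = 4.01e-10). The control means of Cxcl1 lay around the filter threshold of 3.23. Those of Cxcl2 lay under it, at 2.53 in Air and 2.47 in Saline hearts, as did its KCN mean of 3.01. The sizes of the effects of both genes are thus limited by the low end of the scale.

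**Figure D2:**
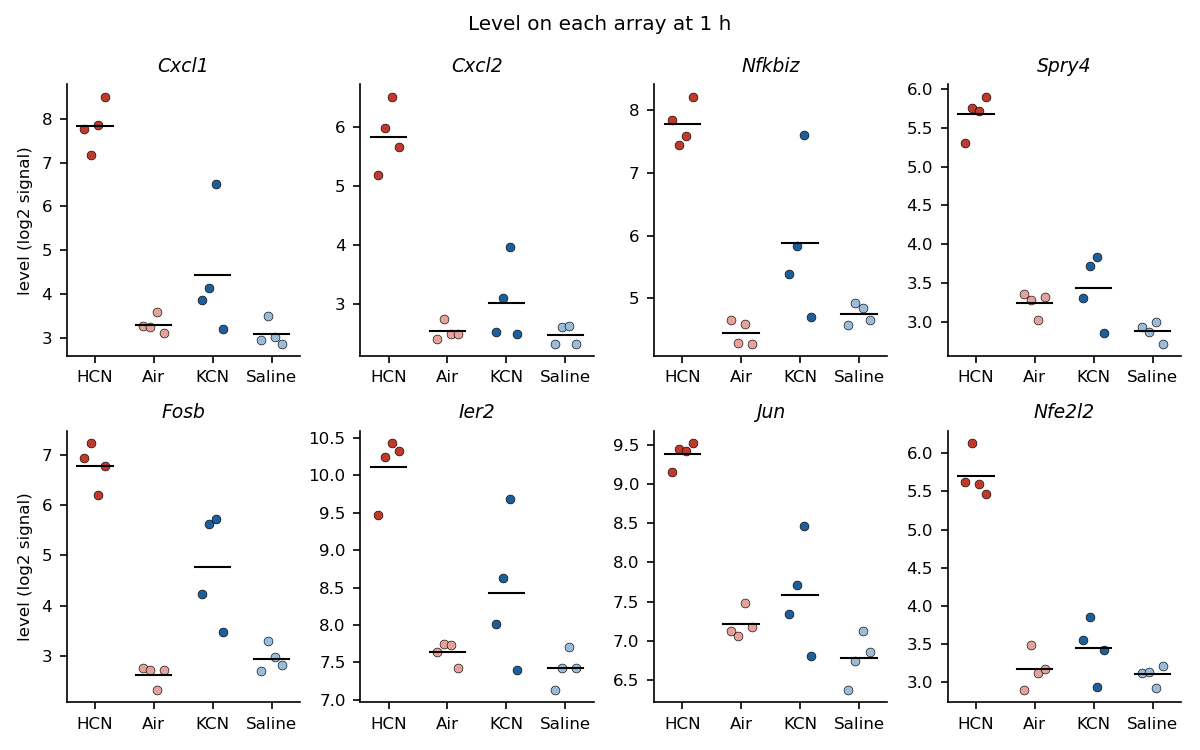
Level of 8 genes on each array at 1 h, in log2 signal, with HCN, Air, KCN and Saline hearts from left to right, 4 points a group and a line at the mean. HCN hearts stand apart from Air hearts in all 8 genes, and the KCN hearts spread widely, with array 3 highest in 7 of the 8.

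These genes lie close to each other on chromosome 5 (GRCm38), Cxcl1 at chr5:90891245-90893121 and Cxcl2 at chr5:90903899-90905938, and their promoters from RefSeq are shown because both hold the same motif. Each runs from 250 bases before to 50 bases after the gene's start on the plus strand, at chr5:90890995-90891294 for Cxcl1 and chr5:90903649-90903948 for Cxcl2. Capitals mark matches to the NF-kB consensus on either strand, which overlap each other within the same 11 bases.
Cxcl1: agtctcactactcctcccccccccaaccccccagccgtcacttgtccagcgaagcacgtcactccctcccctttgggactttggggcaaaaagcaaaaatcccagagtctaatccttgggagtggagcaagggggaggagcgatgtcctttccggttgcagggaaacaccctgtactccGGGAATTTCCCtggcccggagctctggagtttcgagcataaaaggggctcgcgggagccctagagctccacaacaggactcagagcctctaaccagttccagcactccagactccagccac
Cxcl2: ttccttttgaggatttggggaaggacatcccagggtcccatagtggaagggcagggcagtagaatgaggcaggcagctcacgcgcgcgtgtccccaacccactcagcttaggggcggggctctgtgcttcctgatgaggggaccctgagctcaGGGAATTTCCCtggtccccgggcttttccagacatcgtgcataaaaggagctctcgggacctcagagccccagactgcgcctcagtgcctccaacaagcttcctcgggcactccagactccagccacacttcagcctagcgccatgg
The match spans positions -71 to -61 from the start in Cxcl1 and -97 to -87 in Cxcl2, and its letters are the same in both. Of the 14 genes that rose with inhaled cyanide, 11 matched a RefSeq promoter, and 5 of these held an NF-kB match: Cxcl1, Cxcl2, Fosb, St3gal6 and Ube2r2. The same motif was found in 8.46% of all 32851 mouse promoters in that table. A CArG box, the cAMP response element TGACGTCA and the AP-1 element TGANTCA were found in none of the 11, against 1.63%, 1.79% and 7.81% of all promoters, and a match is only a description of these letters. Of the 12 genes that fell with injected cyanide, 8 matched a promoter and 2 held an NF-kB match.

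Other members of the cytokine list were smaller and did not pass. Of 15 measured chemokine and cytokine genes, each by its brightest probe set, 2 were called and 13 were above 0, with a median interaction of 0.26, against 11 called higher and 5 called lower, 50.2% above 0 and a median of 0.0014 over all 12436 genes. Ccl7, a monocyte chemokine, read 4.34, 4.35, 4.47 and 4.67 in HCN hearts, against 2.98, 3.04, 3.30 and 3.28 in Air hearts. It read 3.30, 3.18, 3.81 and 3.39 in KCN hearts, against 3.43, 3.47, 2.87 and 3.24 in Saline hearts, an interaction of 1.14 (95% interval 0.33 to 1.96, adjusted p = 0.326). Il6, the fever and acute-phase cytokine, had 0.87 (0.32 to 1.42, adjusted p = 0.225), with the third KCN array at 3.81 and the other KCN arrays at 2.52 to 2.57. For Ccl2, the main monocyte attractant, the interaction was 0.71 (-0.25 to 1.66). Il33, Cxcl10, Csf3, Ccl3, Ccl4 and Il1b all had adjusted p values of 0.67 or more.

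Nfkbiz, an inducible nuclear member of the IkB family that helps NF-kB turn on secondary genes, read 7.84, 7.45, 7.58 and 8.21 in HCN hearts, against 4.65, 4.29, 4.59 and 4.28 in Air hearts. In KCN hearts it read 5.39, 5.84, 7.61 and 4.70, against 4.58, 4.93, 4.85 and 4.65 in Saline hearts. Relative to the control means the third KCN array, at 2.86, lay just under the lowest HCN array, and the fourth lay within the Saline range. The inhaled effect of 3.32 and the injected effect of 1.14 both rose, with an interaction of 2.18 ± 0.38 (adjusted p = 7.33e-04). The 2 other probe sets of Nfkbiz had interactions of 0.31 and 1.54, and the second of these was called as well. It was the only called gene of 11 in the NF-kB list, whose median was 0.20. Nfkbia, the classical inhibitor that NF-kB induces, rose with both routes, by 1.27 inhaled and 0.90 injected, and its interaction was 0.37 (-0.05 to 0.79). Tnfaip3, a ubiquitin-editing brake on NF-kB, also rose with both, by 1.60 and 1.05, with an interaction of 0.55 (-0.11 to 1.21).

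Of 29 measured immediate early genes 27 had an interaction above 0, against 50.2% of all genes, and the median was 0.44, with a median inhaled effect of 1.61 and a median injected effect of 1.02. By each gene's brightest probe set 2 of the 29 passed, Fosb and Ier2, and Jun and Klf6 passed by another probe set. Fosb, a partner of Jun in the AP-1 factor, read 6.93, 7.23, 6.21 and 6.77 in HCN hearts, against 2.76, 2.72, 2.32 and 2.72 in Air hearts. It read 4.23, 5.62, 5.72 and 3.47 in KCN hearts, against 2.69, 3.29, 2.97 and 2.82 in Saline hearts, so that both arms separated from their controls. Relative to the control means the HCN arrays ran from 3.58 to 4.60 and the KCN arrays from 0.52 to 2.78. Its interaction was 2.34 ± 0.37 (adjusted p = 2.56e-04), from effects of 4.15 and 1.82. Its RefSeq promoter, at chr7:19309996-19310295 on the minus strand of GRCm38, is shown with the NF-kB match, at -188 to -179, in capitals.
Fosb: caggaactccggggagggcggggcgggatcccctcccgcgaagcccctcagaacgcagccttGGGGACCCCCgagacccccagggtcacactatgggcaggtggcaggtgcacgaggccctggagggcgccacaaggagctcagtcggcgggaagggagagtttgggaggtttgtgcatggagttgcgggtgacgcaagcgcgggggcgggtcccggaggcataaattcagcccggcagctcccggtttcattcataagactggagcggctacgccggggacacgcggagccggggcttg
Ier2, a nuclear early response protein, read 9.47, 10.25, 10.43 and 10.33 in HCN hearts, against 7.64, 7.75, 7.73 and 7.42 in Air hearts. It read 8.01, 8.63, 9.68 and 7.40 in KCN hearts, against 7.13, 7.43, 7.71 and 7.43 in Saline hearts. Relative to the control means the third KCN array overlapped the HCN arrays, and the interaction was 1.48 ± 0.31 (adjusted p = 0.0115). Jun, the other core subunit of AP-1, had effects of 2.18 and 0.80 and an interaction of 1.38 ± 0.32 (adjusted p = 0.0423), and 0.70 by its brighter probe set (adjusted p = 0.480). Klf6, a zinc finger factor induced early after injury, had effects of 1.38 and 0.33 and an interaction of 1.05 ± 0.22 (adjusted p = 0.0113). Without the 2 inhalation arrays of low airway signal the interactions were 1.34 for Ier2, 1.32 for Jun and 1.03 for Klf6, with adjusted p of 0.123, 0.159 and 0.0521.

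Several early genes with interactions of 1 to 2.3 log2 units did not pass. The SD of the KCN hearts was 1.30 for Egr1, 1.18 for Fos and 1.75 for Apold1, and 0.56 for Nr4a1 and 0.32 for Atf3. The SE of each interaction came from the fit of all 69 arrays, so this SD does not by itself decide a call. Cxcl1, with an SD of 1.44 in KCN hearts, passed with an SE of 0.46, while Atf3 had an SE of 0.57. With only the 16 arrays fitted, Fosb, Ier2, Jun, Klf6 and Nfkbiz no longer passed, while Cxcl1 still did. Egr1, a zinc finger factor, read 11.34, 11.89, 11.94 and 12.05 in HCN hearts, against 7.78, 6.81, 6.92 and 6.79 in Air hearts. It read 9.98, 10.17, 11.77 and 8.60 in KCN hearts, against 7.40, 7.81, 8.32 and 7.13 in Saline hearts, an interaction of 2.27 (1.12 to 3.42, adjusted p = 0.0743). Fos, the prototype of the class, rose with both routes, by 4.79 and 2.66, and its interaction was 2.13 (0.42 to 3.84, adjusted p = 0.413). Apold1, an early gene of endothelial cells, had 2.04 (0.82 to 3.26, adjusted p = 0.178), and its KCN arrays ran from 6.64 to 10.8. Klf2, a factor of endothelium under flow, rose by 1.57 inhaled and stood at 0.08 injected, with an interaction of 1.49 (0.70 to 2.27, adjusted p = 0.0947). For Nr4a1, an orphan nuclear receptor, it was 1.30 (0.09 to 2.51), and for Atf3, a stress factor of the ATF family, 1.02 (-0.13 to 2.17).

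Nr4a3, Gadd45b and Ccn1 rose with both routes, and their interactions did not pass. Nr4a3, a relative of Nr4a1, read 9.86, 8.85, 8.13 and 9.05 in HCN hearts, against 6.63, 6.62, 6.27 and 6.05 in Air hearts. It read 10.24, 10.12, 9.15 and 10.00 in KCN hearts, against 7.14, 7.10, 7.81 and 7.22 in Saline hearts. Its effects were 2.58 inhaled and 2.56 injected, both called, and the interaction was 0.02 with a 95% interval of -1.27 to 1.30, which leaves room for a difference of over 2-fold either way. Gadd45b, a stress sensor upstream of p38 kinase, had effects of 1.95 and 2.40 and an interaction of -0.46 (-1.22 to 0.31). For Ccn1, a secreted matrix protein, the effects were 2.97 and 2.53 and the interaction 0.44 (-0.43 to 1.31), or 0.90 by its other probe set. Klf4, a zinc finger factor, rose by 1.12 inhaled, its injected effect of 0.70 did not pass (adjusted p = 0.0810), and its interaction was 0.43 (-0.25 to 1.10).

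**Figure D3:**
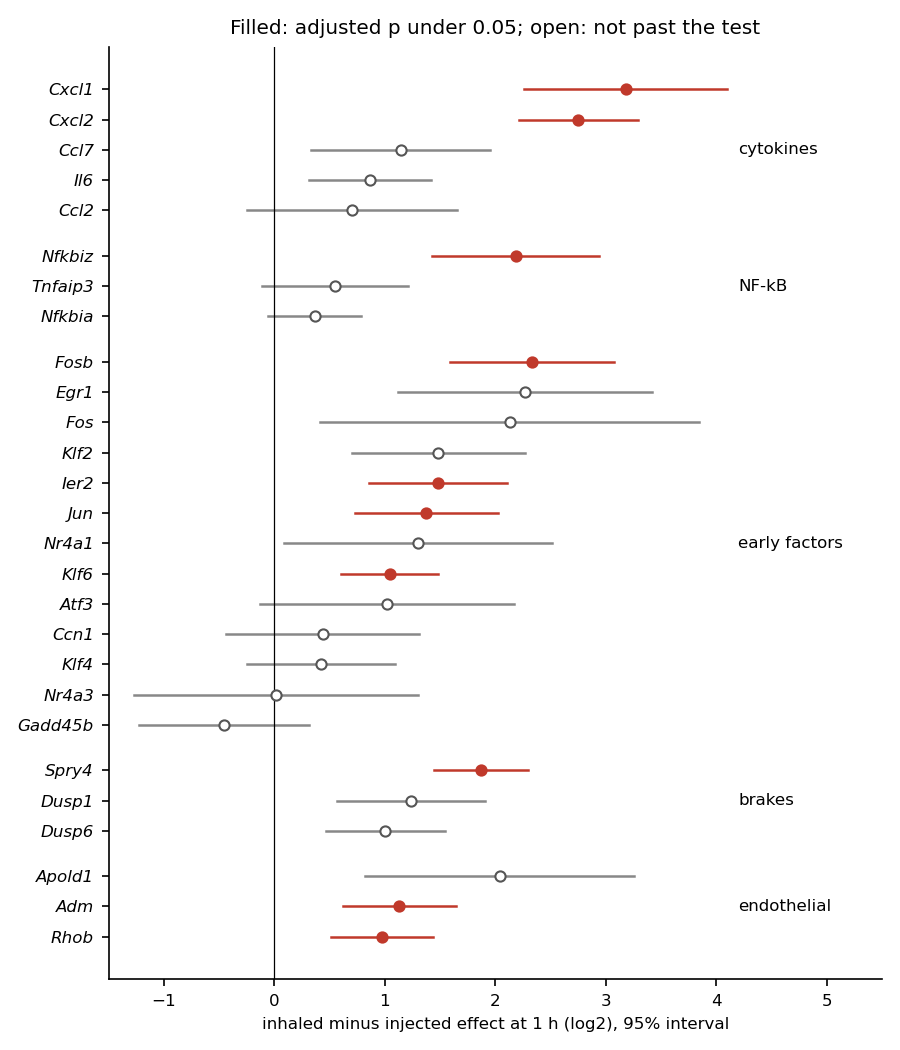
Interaction at 1 h with its 95% interval, in log2, for 27 genes grouped by role. Filled points passed at an adjusted p of 0.05 and open points did not; positive values mean a more positive inhaled effect. Cxcl1 is farthest from 0 at 3.18, while the intervals of Nr4a3, Gadd45b, Ccn1, Klf4, Atf3, Ccl2, Tnfaip3 and Nfkbia include 0.

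The feedback inhibitors of MAP kinase signalling were led by Spry4, a Sprouty protein that damps receptor tyrosine kinase signals to Erk. It read 5.31, 5.76, 5.72 and 5.90 in HCN hearts, against 3.36, 3.28, 3.03 and 3.32 in Air hearts. It read 3.31, 3.72, 3.84 and 2.86 in KCN hearts, against 2.94, 2.87, 3.0 and 2.72 in Saline hearts. Relative to the control means the HCN arrays ran from 2.06 to 2.65 and the KCN arrays from -0.03 to 0.95. The interaction was 1.87 ± 0.21 (adjusted p = 4.82e-08), from effects of 2.42 and 0.55, and its 3 other probe sets lay between 1.05 and 1.10, with 1 of them called. By the brightest probe set of each gene, 0 of the 12 measured inhibitors passed, Spry4 included, with 10 above 0 and a median of 0.55. Dusp1, the nuclear phosphatase of p38 and Jnk, read 11.86, 12.40, 12.49 and 12.20 in HCN hearts, against 10.36, 10.44, 10.09 and 10.33 in Air hearts. It read 10.73, 11.41, 12.27 and 10.10 in KCN hearts, against 10.19, 10.38, 10.67 and 10.49 in Saline hearts, an interaction of 1.24 (0.56 to 1.91, adjusted p = 0.108). For Dusp6, the cytoplasmic phosphatase of Erk, it was 1.01 (0.47 to 1.54, adjusted p = 0.0996), from effects of 0.72 and -0.29.

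The third KCN heart stood out in this group. It was the highest of the 4 KCN arrays in 11 of the 14 genes that rose with inhaled cyanide. Without it the interaction was larger in 12 of the 14, and the median over the 14 was 1.78, against 1.43 with all arrays. The interaction of Cxcl1 was then 3.87, that of Nfkbiz 2.76 and that of Ier2 1.90. Array 3 was singled out by these same values, so larger interactions without it follow from that choice. Of the 33 called genes followed, 4 no longer passed without KCN array 3. Without KCN array 4, 7 of the 33 no longer passed: Ier2, Jun, Klf6, Adm, Rhob, Pdrg1 and Itpkc.

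The list of oxygen-sensing genes held 1 call and that of oxidant defence genes 0. Adm, which encodes the vasodilator adrenomedullin and is a target of the hypoxia factor HIF, read 7.04, 7.09, 7.25 and 7.49 in HCN hearts, against 6.71, 6.22, 6.05 and 6.23 in Air hearts. It read 6.14, 5.71, 6.27 and 5.84 in KCN hearts, against 6.60, 6.10, 6.40 and 5.74 in Saline hearts. The inhaled effect of 0.91 rose, the injected effect was -0.22, and the interaction was 1.13 ± 0.25 (adjusted p = 0.0259). Without the 2 inhalation arrays of low airway signal it was 1.02, with an adjusted p of 0.168. Adm was the only called gene of 20 HIF targets, whose median was 0.11. Ankrd37, another HIF target, fell with both routes, by 1.09 inhaled and by 1.79 injected, and its interaction of 0.71 did not pass (-0.05 to 1.46).

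Nfe2l2, which encodes NRF2, a transcription factor of the oxidant response, was called by a dim probe set. That probe set read 5.63, 6.13, 5.60 and 5.47 in HCN hearts, against 2.90, 3.49, 3.13 and 3.17 in Air hearts. It read 3.56, 3.86, 2.94 and 3.43 in KCN hearts, against 3.13, 3.14, 2.93 and 3.22 in Saline hearts, an interaction of 2.19 ± 0.36 (adjusted p = 3.96e-04). The other probe set of Nfe2l2, with a mean level of 9.10, had an interaction of -0.19, so that the probe sets of the gene disagreed. In the list of NRF2 targets and other oxidant defence genes all 13 measured had an interaction under 0, as 49.8% of all genes did, with 0 called and a median of -0.25. Among them were the peroxiredoxin Prdx1 at -0.25, catalase (Cat) at -0.38, the glutathione synthesis subunit Gclm at -0.53 and heme oxygenase Hmox1 at -0.32.

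The remaining called genes of the HCN branch are named here after their values were seen. Rhob, an early-response small GTPase, had effects of 0.93 and -0.05 and an interaction of 0.98 ± 0.23 (adjusted p = 0.0422). Tm4sf5, a membrane protein of the tetraspan type, had 0.78 and -0.46, with an interaction of 1.24 ± 0.24 (adjusted p = 0.00356). The sialyltransferase gene St3gal6 had 1.60 and 0.23 and an interaction of 1.37 ± 0.29 (adjusted p = 0.0148), while its 3 other probe sets lay between 0.11 and 0.34. Ube2r2, a ubiquitin-conjugating enzyme, had 0.49 and -0.31 and an interaction of 0.79 ± 0.17 (adjusted p = 0.0125), while its other probe set, with a mean level of 9.94, gave 0.01. The called probe set of Ube2r2 had a mean level of 4.76. Without the 2 inhalation arrays of low airway signal Rhob stood at 0.98 and no longer passed (adjusted p = 0.141).

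The second branch of higher interactions came from 23 probe sets that were lower in KCN than in Saline hearts, given here as a fall with injected cyanide. Pttg1ip, which encodes a binding partner of securin, read 3.78, 3.32, 3.36 and 3.87 in HCN hearts, against 4.60, 3.81, 3.68 and 3.40 in Air hearts. It read 2.97, 3.12, 2.91 and 2.71 in KCN hearts, against 6.04, 5.98, 6.30 and 5.73 in Saline hearts. The KCN arrays lay far below the Saline arrays while the HCN and Air arrays overlapped, and the effects of -0.29 and -3.09 gave an interaction of 2.80 ± 0.37 (adjusted p = 3.37e-06). Ndufab1, the acyl carrier protein of respiratory complex I, read 5.73, 6.70, 6.66 and 6.82 in HCN hearts, against 7.99, 7.36, 7.54 and 7.30 in Air hearts. It read 6.74, 6.33, 6.07 and 6.10 in KCN hearts, against 9.38, 9.34, 9.27 and 9.20 in Saline hearts, and it fell with both routes, by 1.07 inhaled and by 2.98 injected. The interactions were 1.91 ± 0.40 for Ndufab1 (adjusted p = 0.0115), 1.88 ± 0.36 for the Golgi GTPase Rab2a (adjusted p = 0.00356), 1.64 ± 0.33 for Tm2d1 and 1.38 ± 0.28 for the small heat shock protein Hspb1 (both adjusted p = 0.00769). Pnisr, a splicing-related protein of nuclear speckles, had effects of 0.65 and -0.83 and an interaction of 1.48 ± 0.32 (adjusted p = 0.0127), and its other probe set was also called, at 1.51. Coro1c, Kctd10, Pdrg1, Atrnl1 and Eml5, named after their values were seen, had interactions of 0.96 to 1.31. In 7 of the 23 probe sets, among them those of Pttg1ip, Coro1c, Atrnl1 and Eml5 and the named one of Rab2a, the KCN mean lay under the filter threshold of 3.23, so that the sizes of these falls are limited by the low end of the scale. Atrnl1 was under it in HCN and Air hearts as well, and Eml5 in HCN hearts. Without the 2 inhalation arrays of low airway signal Ndufab1, Pnisr, Coro1c, Kctd10, Pdrg1 and Eml5 no longer passed, at 1.72, 1.43, 0.91, 0.91, 1.11 and 1.30.

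Most of these calls were not shared by other probe sets of the same genes. Pttg1ip had 2 others with a mean level of 9.97 and interactions of -0.15 and 0.14. The 3 others of Ndufab1, with a mean level of 12.5, ran from -0.36 to 0.03, and that of Tm2d1 gave -0.08 at a level of 8.46. For Pdrg1 the others lay at -0.09 and -0.03, and for Kctd10 the other gave 0.20. The called probe sets of Rab2a and Hspb1 each had 1 further called probe set, at 1.65 and 1.62, beside others near 0.

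The mean level of the 23 probe sets, which were chosen by these values and are given without a test, was 4.57 in HCN 1 h hearts, against 4.81 in Air 1 h hearts, and 4.04 in KCN 1 h hearts, against 5.85 in Saline 1 h hearts. In the Saline groups it was 5.85, 3.78, 3.90, 4.41 and 5.97 at 1, 2, 4, 8 and 24 h, so the controls of the injection arm differed by about 2 log2 units between times. In the KCN groups it was 4.04, 3.97, 4.64, 3.98 and 4.06 at the same times. Whether KCN lowered these levels or the Saline 1 h hearts stood high was not tested. The 3' to 5' ratio of the actin control probe sets, a measure of RNA integrity and labelling, was 0.84, 0.42, 0.86, 0.45 and 0.88 in the Saline groups (log2). The highest ratio, 1.22, was that of HCN 2 h hearts, at a level of 4.73. At 1 h the ratio was 0.42 ± 0.06 in HCN, 0.50 ± 0.17 in Air, 0.48 ± 0.08 in KCN and 0.84 ± 0.17 in Saline hearts at 1 h (log2, SD, n = 4 each). Its interaction was 0.27, with an exact permutation p of 0.145 over 4900 relabelings within the routes. Over arrays the ratio and the mean level correlated at 0.62 in the 37 injection arrays and at 0.61 in the 32 inhalation arrays, a description, since the groups set both. The 18S ribosomal control had an interaction of 0.21 (exact permutation p = 0.00857, adjusted over 3 measures 0.0257), at 13.1 in HCN, 13.0 in Air, 13.0 in KCN and 13.2 in Saline hearts. The part of RNA integrity in these falls was not tested. With the actin ratio as a covariate 44 probe sets passed, 43 of them among the 53. Of the 33 called genes followed, 8 no longer passed: Jun, Adm, Rhob, Pdrg1, Ankhd1, Atp2b1, Kif5b and Itpkc.

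**Figure D4:**
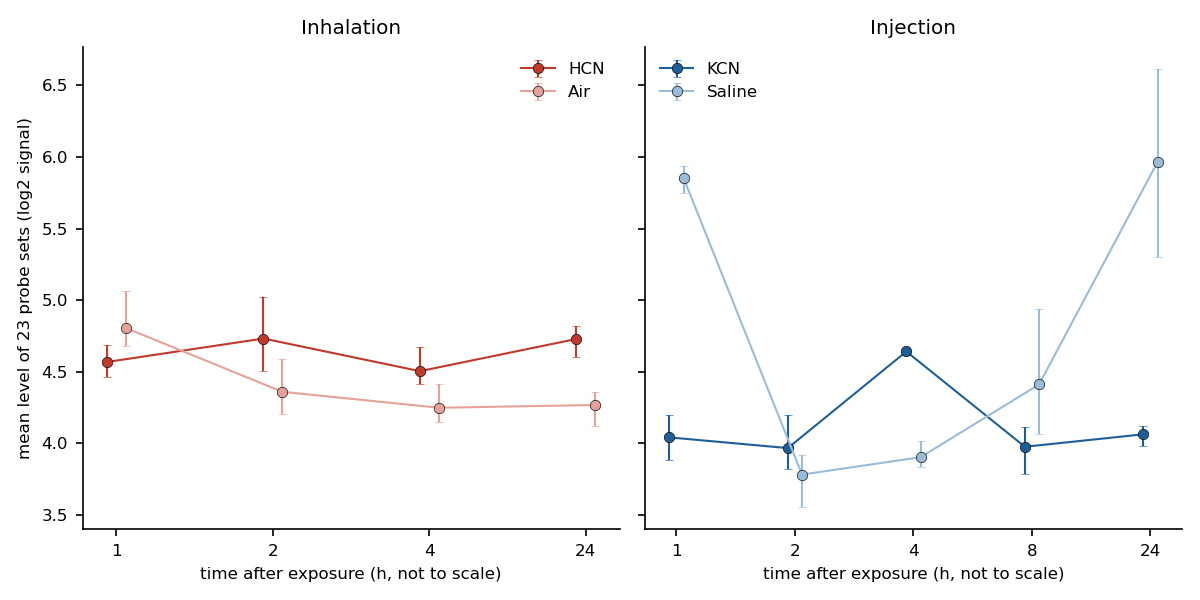
Mean log2 level of the 23 probe sets that fell with injected cyanide, by time after exposure, for HCN and Air hearts (left) and KCN and Saline hearts (right). Points are group means over 3 or 4 arrays and bars the lowest and highest array; the Saline hearts are high at 1 and 24 h and low in between.

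The 9 lower interactions came mostly from rises with injected cyanide, and the 7 with a gene symbol lay between -0.89 and -0.55, while the other 2 were -1.02 and -2.07. Srp72, a subunit of the signal recognition particle, read 9.09, 9.11, 9.09 and 9.11 in HCN hearts, against 9.17, 9.13, 9.31 and 9.25 in Air hearts. It read 9.40, 9.38, 9.24 and 9.31 in KCN hearts, against 8.98, 8.71, 8.74 and 8.84 in Saline hearts, so that every KCN array lay above every Saline array and every HCN array just below every Air array. Its interaction was -0.63 ± 0.12 (adjusted p = 0.00307), and its other probe set gave 0.09. Atp2b1, a calcium pump of the plasma membrane, was the named gene that fell with inhaled cyanide, with effects of -0.49 and 0.39 and an interaction of -0.88 ± 0.20 (adjusted p = 0.0286). The interaction was -0.89 for the ankyrin repeat protein gene Ankhd1, -0.82 for the kinesin motor Kif5b, -0.80 for the inositol kinase Itpkc, -0.74 for Ankrd17 and -0.55 for the ribosomal protein gene Rpl35, with adjusted p of 0.00977 to 0.0444. For these 5 the injected effect passed as a rise, of 0.34 to 0.74. In all 7 genes the KCN mean lay nearer than the Saline mean to the mean over all 69 arrays, which mixes both routes. For Srp72 the KCN, Saline and 69-array means were 9.33, 8.82 and 9.23, and for Ankrd17 8.25, 7.78 and 8.25. The part of the Saline controls in these rises was not tested. Without the 2 inhalation arrays of low airway signal Srp72 and Rpl35 still passed, at -0.63 and -0.56, and the other 5 did not, at -0.70 to -0.82. No other tested probe set of the 7 genes was called, and Itpkc had none. The others ran from -0.20 to 0.13 for Ankhd1, -0.04 to 0.12 for Ankrd17, -0.24 to -0.07 for Rpl35 and -0.39 to 0.09 for Atp2b1. For Kif5b the 4 others ran from -0.88 to -0.10, with a median of -0.24.

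By each gene's brightest probe set, no gene of the pathway that cyanide blocks was called, while Ndufab1 was called by the dimmer probe set given above. Of 20 measured genes of cytochrome c oxidase and its assembly 0 passed, with a median of -0.02 and Cox5b at 0.13 having the smallest p (adjusted p = 0.530). Of 31 genes of respiratory complex I 0 passed by their brightest probe set, with a median of -0.04, and the citric acid cycle (14 genes) and glycolysis (14 genes) had 0 calls and medians of -0.0043 and 0.04. Cyanide and sulfide detoxification had 0 of 8, and its sulfurtransferases Tst and Mpst stood at -0.27 and -0.06. Fatty acid oxidation had 17 of 18 genes under 0, with 0 called and a median of -0.14. The glucocorticoid-responsive list had 0 of 20 called and a median of 0.01. Kcnj11, the pore of the ATP-sensitive potassium channel, fell with injected cyanide by 0.88 and stood at -0.20 inhaled, with an interaction of 0.68 (0.27 to 1.09, adjusted p = 0.186).

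Markers of other tissues differed between the injection groups, and some between the inhalation groups, and none of their interactions passed. All 7 airway markers were under 0, with a median interaction of -7.43, an inhaled median of -0.49 and an injected median of 7.13. Scgb1a1 itself had an interaction of -9.36 (-16.2 to -2.48, adjusted p = 0.348), and Bpifa1, an airway secretory protein, -8.79. The 4 alveolar markers were also all under 0, with a median of -2.17. Their mean level was 3.18 to 5.10 in HCN, 3.12 to 6.16 in Air, 3.79 to 8.26 in KCN and 2.85 to 3.07 in Saline hearts. The 4 adipocyte markers were all under 0, with a median of -1.06, and their mean level was 8.12 to 8.41 in HCN, 7.78 to 8.78 in Air, 6.69 to 7.76 in KCN and 5.31 to 6.45 in Saline hearts. Adipoq, the fat hormone adiponectin, had -2.20 (-4.60 to 0.19). All 7 lymphocyte markers were under 0 as well, with a median of -0.77, and 7 of 8 platelet markers, with a median of -0.69. The median effects were -0.20 inhaled and 0.29 injected for lymphocyte markers, and -0.42 and 0.31 for platelet markers. Of 5 thymocyte markers 4 were under 0, with median effects of -1.05 inhaled and -0.04 injected. Their mean level was 2.67 to 2.80 in HCN, 2.62 to 5.78 in Air, 2.56 to 2.70 in KCN and 2.60 to 2.71 in Saline hearts. Of 10 macrophage markers 7 were under 0, with a median of -0.26. The neutrophil markers, 8 measured, had 5 under 0 and a median of -0.04, and ran from -4.58 for Ltf to 0.28 for S100a8. Their mean levels were 4.00 to 4.89 in HCN, 3.87 to 6.13 in Air, 3.66 to 3.99 in KCN and 3.21 to 3.52 in Saline hearts. With airway markers as a covariate 49 probe sets passed, 34 higher and 15 lower, and 40 of them were among the 53. Jun, Adm, Dusp23, Ndufab1, Eml5, Pdrg1 and Itpkc no longer passed. The part of carried-over tissue in the other differences was not tested.

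The same interaction was measured at 2, 4 and 24 h in other animals, and it passed for 5.73%, 1.87% and 18.8% of probe sets. The 20 probe sets of the HCN branch were called higher again in 5 cases at 2 h, where 2.15% of all probe sets were, in 1 case at 4 h (0.646%), and in 0 cases at 24 h (8.09%). Cxcl1 had interactions of 3.18, 2.28, 1.64 and -0.10 at 1, 2, 4 and 24 h, and passed at 1 and 2 h. Cxcl2 had 2.75, 0.68, 0.57 and 0.07, Fosb 2.34, 0.93, -0.13 and 0.10, and Spry4 1.87, -0.37, -0.10 and -0.59. Nfe2l2, by its dim probe set, kept 2.19, 1.40 and 1.69 over the first 3 times, all called, and had -0.04 at 24 h. Among genes with no call at 1 h, Ccl2 and Ccl7 were called at 4 h, with interactions of 1.86 and 1.81, and so was Nfkbia, at 1.08. In contrast, 21 of the 23 probe sets of the KCN branch were called higher again at 24 h, where the Saline level was also high, and 0 were at 4 h.

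**Figure D5:**
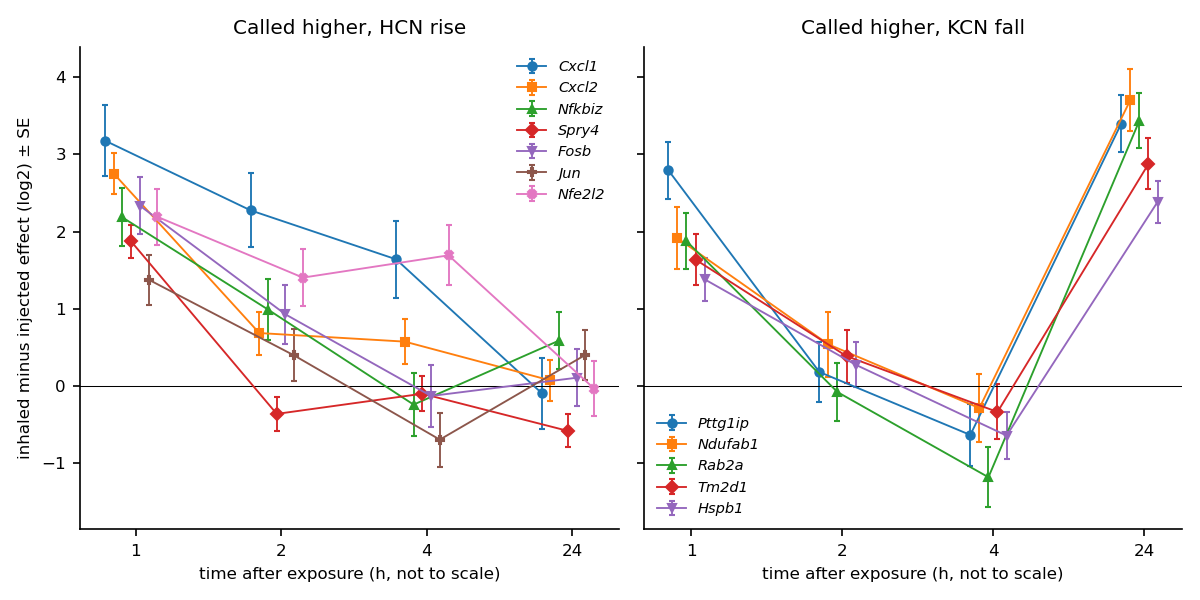
Interaction (inhaled minus injected effect, log2, with SE) at 1, 2, 4 and 24 h for 7 genes that rose with inhaled cyanide (left) and 5 that fell with injected cyanide (right). The left-hand values are largest at 1 h and, apart from Nfkbiz, Jun and Spry4, within 0.10 of 0 at 24 h; the right-hand values are high at 1 and 24 h and below 0 at 4 h.

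The change of the interaction between 1 h and 4 h was tested in its own contrast, with 14 arrays at 4 h. It passed for 138 probe sets, 0.515% of those tested, 106 higher at 1 h (0.396%) and 32 lower (0.12%), a split of 76.8% higher that was 43.6% when each array was centred on its median. The count also rested on single 4 h arrays: leaving out KCN 4 h replicate 1 gave 47, leaving out KCN 4 h replicate 2 gave 226, and leaving out Saline 4 h replicate 2 gave 75. Of the 20 probe sets of the HCN branch 7 passed, all higher at 1 h, a count in which the 1 h arrays chose the members. Fosb was higher at 1 h by 2.47, Nfkbiz by 2.43, Cxcl2 by 2.18, Jun by 2.08, Spry4 by 1.98 and Adm by 1.68, with adjusted p of 4.5e-04 to 0.0235. For Cxcl1 the change was 1.54 (adjusted p = 0.353), and for Nfe2l2 it was 0.50. Chosen after their values were seen, Zbtb16 and Map3k6 ran the other way. Zbtb16, a zinc finger factor induced by glucocorticoids, had interactions of -1.05 at 1 h and 2.32 at 4 h, a change of -3.36 (adjusted p = 0.00512). Map3k6, a stress kinase, had -1.30 and 1.49, a change of -2.79 (adjusted p = 0.00716).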

How the data were processed

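The labels describe total RNA from mouse hearts, made into biotin-labelled cRNA from 100 ng per sample with a 3' IVT kit. The deposited values are log2 signals per probe set, already summarised and normalized between arrays by the authors. Per the submitters' processing notes MAS5 was used, without a version or a role, and the sources used here give no scan dates. The 32 inhalation and 37 injection arrays have different distributions of values (median 95th percentile 9.52 and 9.24). Levels were therefore compared only within a route and the routes only through effects. The means over all 69 arrays given with the lower interactions are an exception.

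Gene symbols came from the platform's probe annotation: 28898 of 45141 probe sets carry 1 symbol and 551 several, and none was named from the latter. After 104 control probe sets were left out, 26773 were tested, each with at least 1 of 18 group means above the median group mean of 3.23. In R 4.3.3, limma 3.58.1 fitted all 69 arrays as 18 group means with eBayes and an intensity trend (51 residual and 5.53 prior degrees of freedom). P values are two-sided and Benjamini-Hochberg adjusted within each contrast, over all tested probe sets. The ± values of effects are standard errors from the fit of all 69 arrays, not from the compared groups alone. Intervals are 95%, and a fold is 2 to the power of the log2 value. Arrays were taken as separate mice, and their number limits the precision.

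The comparison, its gene lists and the named genes were chosen with earlier results of these data known. The rule for names takes the 15 largest interactions in each direction among called probe sets with 1 symbol and no overlap of arrays, the members of each list with the lowest p (at most 4), and some fixed genes. A list counts each gene by its probe set of highest mean, and a gene described alone outside a list by its probe set of lowest p if the gene was called. RNA quality ratios were compared by exact permutation within routes, two-sided, whose smallest possible p is 4.1e-04. The fit was tested on simulated data. Replicate numbers were not used as pairs in the main fit: deviations of same-numbered arrays correlated at -0.15 to 0.22, with 3 of 24 pairs over 0.1. The HCN and Air arrays numbered 2, 3 and 4 did correlate best with their own number, at 0.22, 0.06 and 0.21. Array 4 was also low in airway signal in both groups, so handling shared by number within inhalation may exist. A fit with replicate blocks is given below. Promoters came from RefSeq (GRCm38), and figures were drawn with matplotlib 3.10.9.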

Additional observations from a re-analysis of the deposited data

Results flagged for a closer look

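Single arrays stood apart from the other 3 of their group by Dixon's test at 95% in 20 of 220 group tests over the named genes, where chance flags about 1 in 20. Among the early and immune genes these were Il6 on KCN array 3 at 3.81 (others 2.52 to 2.57), Nfkbia on HCN array 4 at 11.02 (10.83 to 10.86), Fosb on Air array 3 at 2.32 (2.72 to 2.76), Egr1 on Air array 1 at 7.78 (6.79 to 6.92), Nr4a1 on HCN array 2 at 11.60 (11.27 to 11.32) and Dusp6 on Saline array 4 at 7.56 (8.09 to 8.18). Airway RNA gave Scgb1a1 on Air array 4 at 5.33 (11.76 to 12.29) and on HCN array 4 at 2.89 (10.99 to 11.98), and Bpifa1 on Air array 4 at 3.21 (12.02 to 12.19). Among the genes of the KCN branch they were Ndufab1 on HCN array 1 at 5.73 (6.66 to 6.82), Rab2a on HCN array 2 at 4.15 (3.79 to 3.85), Hspb1 on Air array 3 at 4.72 (4.46 to 4.50) and Coro1c on Air array 1 at 3.95 (3.48 to 3.55). Eml5 was low on KCN array 4 at 2.49 (2.89 to 2.93) and on Saline array 4 at 3.66 (4.57 to 4.76), and Kctd10 on KCN array 3 at 3.17 (3.54 to 3.61) and on Air array 4 at 3.27 (3.95 to 4.09). The last 3 were Ankhd1 on KCN array 3 at 7.40 (7.13 to 7.15), Ankrd17 on KCN array 4 at 7.99 (8.32 to 8.36) and Kcnj11 on HCN array 3 at 5.96 (5.55 to 5.62).

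The interaction differed between 1 h and 4 h, by the test of that difference, for 13 named genes of the HCN and KCN branches. In these it was higher at 1 h each time, while Zbtb16 and Map3k6, given above, passed as lower at 1 h. Of the HCN branch these were Fosb at 2.47, Nfkbiz at 2.43, Cxcl2 at 2.18, Jun at 2.08, Spry4 at 1.98 and Adm at 1.68. Of the KCN branch they were Pttg1ip at 3.43, Rab2a at 3.06, Eml5 at 2.08, Hspb1 at 2.03, Tm2d1 at 1.98, Pnisr at 1.97 and Kctd10 at 1.64. The mean level of the KCN branch was 5.85 in Saline hearts at 1 h and 3.90 in Saline hearts at 4 h.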

How the results depend on the processing

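The 53 calls of the interaction became 48 to 62 under quantile normalization or median centring of all arrays, no filter or a stricter one, and eBayes without the trend or in its robust form. They became 129 with the 16 arrays quantile-normalized and fitted alone, with 55.8% higher against 83.0%, 125 with only the 16 arrays in the fit (51.2% higher, 35 of the 53 kept), and 230 with array weights (all 53 kept). The airway covariate gave 49 with 69.4% higher. Chosen after seeing the data were the fit without the 2 inhalation arrays of low Scgb1a1, with 29, and 1 probe set per gene, with 13 over 12436 tested. Leaving out single arrays gave 39 to 79 calls, and for the change between 1 h and 4 h 47 to 226. That change gave 139 to 160 calls under both normalizations of all arrays, the 30 arrays fitted alone and the replicate block, and 98 with no filter. The replicate block gave 57 calls for the interaction. In 10 of 24 comparisons between groups an array correlated best with the array of its own number. Of 33 called genes, 9 passed under all 29 settings run (Cxcl2, Nfe2l2, Spry4, Tm4sf5, Hspb1, Pttg1ip, Rab2a, Tm2d1 and Srp72), 17 in every fit without a single array, and 0 changed sign. A left-out array cost 3 to 10 of the 33 calls: Jun held in 4 of 16 such fits, Rhob and Itpkc in 5, Adm and Dusp23 in 7 and Atp2b1 and Pdrg1 in 8. Cxcl1 was lost only with the 16 arrays quantile-normalized alone (adjusted p = 0.0575), and Nfkbiz and Fosb only there and with the 16 arrays fitted alone. Over 1592 gene values under an alternative, 168 lost a call, 18 gained a call and 9 changed sign. The sign changed for Nr4a3 with airway markers as a covariate (-0.012), without the 2 low inhalation arrays (-0.12) and without some single arrays (range -0.28 to 0.30), and for Bpifa1 with the airway covariate (0.090). Actin, Gapdh and 18S interactions without single arrays were 0.20 to 0.34, -0.15 to -0.08 and 0.17 to 0.25. Low control levels and 4 arrays a group limit the sizes of the effects.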

Other observations

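Of the 53 called probe sets, 14 carry no gene symbol here. The largest positive interaction of the 53 was among them, at 3.30 (adjusted p = 4.16e-04), with mean levels of 8.97 in HCN hearts and 4.29 in Air hearts, and 6.04 in KCN hearts and 4.66 in Saline hearts. The most negative of the 53 was also among them, at -2.07 (adjusted p = 3.32e-04), with 10.2 in HCN hearts and 9.96 in Air hearts, and 10.4 in KCN hearts and 8.16 in Saline hearts.

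Several other lists held values not described above, with no call among them. Socs3, an inhibitor of interleukin 6 signalling, rose with inhaled cyanide by 1.37 and stood at 0.18 injected, an interaction of 1.19 (0.33 to 2.05, adjusted p = 0.337), while the receptor chain Il6ra stood at -0.90 (-1.45 to -0.35, adjusted p = 0.202). Ptx3, a secreted pentraxin, rose with both routes, by 2.79 and 1.78, with an interaction of 1.01 (0.03 to 1.99). Ppp1r15a, a brake on the integrated stress response, also rose with both, by 1.62 and 0.69, with 0.93 (0.32 to 1.53). Of 18 chaperones of the endoplasmic reticulum 13 were under 0, with a median of -0.14 and Dnajc3 at -0.69 (-1.06 to -0.31, adjusted p = 0.108). Nppa, the atrial natriuretic peptide gene, was at -0.01 with a narrow interval of -0.22 to 0.19.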
